A study of Arabidopsis thaliana with 8 samples.

Results

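Plants sense red and far-red light through phytochromes, of which phytochrome B is one. In its light-activated form it enters the nucleus, where it brings about the loss of phytochrome-interacting transcription factors, and it carries much of the control of germination and of seedling growth by red light. Dark-grown seedlings still live largely on seed reserves, chiefly storage proteins and the oil held in oil bodies. The probe sets described here are those of the ATH1 array, an Affymetrix expression array for Arabidopsis thaliana, that separated every array of seedlings carrying the phyB-9 mutation from every array of seedlings without it. They numbered 44, of 16066 probe sets bright enough to be considered and of 22746 on the array without the controls.

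The series holds 8 arrays from whole seedlings of the Columbia accession, 2 for each of 4 genotypes: wild type (WT), a phytochrome A mutant with the allele phyA-211 (phyA), a phytochrome B mutant with phyB-9 (phyB) and the double mutant with both alleles (phyAphyB). All seeds were chilled at 6 degrees C for 5 days on 0.8% agar, given 1 h of white light to start germination and then kept for 3 days in darkness at 22 degrees C, so no group was free of an early light exposure. The 4 arrays of phyB and phyAphyB are called carriers below, and the 4 of WT and phyA non-carriers. All carriers hold the same allele, so the loss of phytochrome B and anything else inherited with phyB-9 in these lines cannot be told apart. Separate cultures are not stated for arrays of 1 genotype, so a p-value here reflects how far these particular arrays scatter, possibly for technical reasons.

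The rule worked on the log2 of the intensity plus 39, called the level below, and a difference of 1 in it is a doubling on that scale. It asked for a mean level of at least 8 over the 8 arrays, for all carriers above or all below all non-carriers, and for a difference of at least 1 between the 4-array means. It gave 28 raised probe sets, 0.174% of the 16066, and 16 lowered ones, 0.0996%. The members were thus chosen by these intensities of carriers and non-carriers, and the differences between carriers and non-carriers below are descriptions without a test. Leaving the size of the difference aside, 133 probe sets (0.828%) had all carriers above all non-carriers and 118 (0.734%) had all below. Conversely, a difference of at least 1 upward was reached by 97 probe sets, of which 28 were separated, and downward by 54, of which 16 were. In the limma fit over all 16066 probe sets this same contrast called 3 (0.0187%), and all 3 were members, from which nothing is read because the rule used that contrast. At the edge of the rule, 252652_at differed by 1.02 and was just inside, and 257853_at by 0.99 and was just outside. On the lowered side AT4G31330 differed by -1.05 inside and AT1G11730 by -0.99 outside.

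The split between raised and lowered depended on how the arrays were scaled. With the intensities as deposited 63.6% of the separating probe sets were raised, with each array centred on its median 48.7% (19 raised and 20 lowered), and with quantile normalization 49.0% (25 and 26). Of the 28 raised members 18 also met the rule after centring and 24 after quantile normalization, and of the 16 lowered members 13 and 15 did. The median difference over all tested probe sets was 0.0094 as deposited and -0.044 after centring.

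A pair of arrays stood apart in one measure of RNA quality. The 3'/5' signal ratio of the GAPDH control transcript, which is high where RNA was degraded, reached 16.7 for WT replicate 1 and 7.87 for phyB replicate 2, while the remaining 6 arrays lay between 1.31 and 2.31. By the same ratio of the actin control WT replicate 1 alone stood apart, at 46.7, and phyB replicate 2, at 7.5, lay within the 3.64 to 10.8 of the others. One of them is a non-carrier and the other a carrier. Without both, 23 of the 28 raised members and 10 of the 16 lowered members still differed by at least 1, with ranges of 0.74 to 2.63 and -3.44 to -0.68. Whether RNA quality took part in the other members' differences was not tested.

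Only 17 of the 44 members (38.6%) name a single gene in the annotation table used, against 55.1% of all tested probe sets. Of the 28 raised members 9 are named and 19 are not listed there, and of the 16 lowered members 8 are named and 8 are not listed. Unlisted probe sets are given by their identifier. Of the 17 named genes 15 are protein-coding in RefSeq, 1 is a pseudogene and 1 a transcribed pseudogene. No named members lie next to each other in the genome: the closest, AT5G10770 and AT5G11550, are 94 positions apart in gene order. Unlisted members were not placed in the genome, so whether they lie close to each other or to named ones was not tested. Neither PHYB nor PHYA is named by a probe set in the annotation table used, which leaves no check of the mutant labels on the mutated genes.

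**Figure D1:**
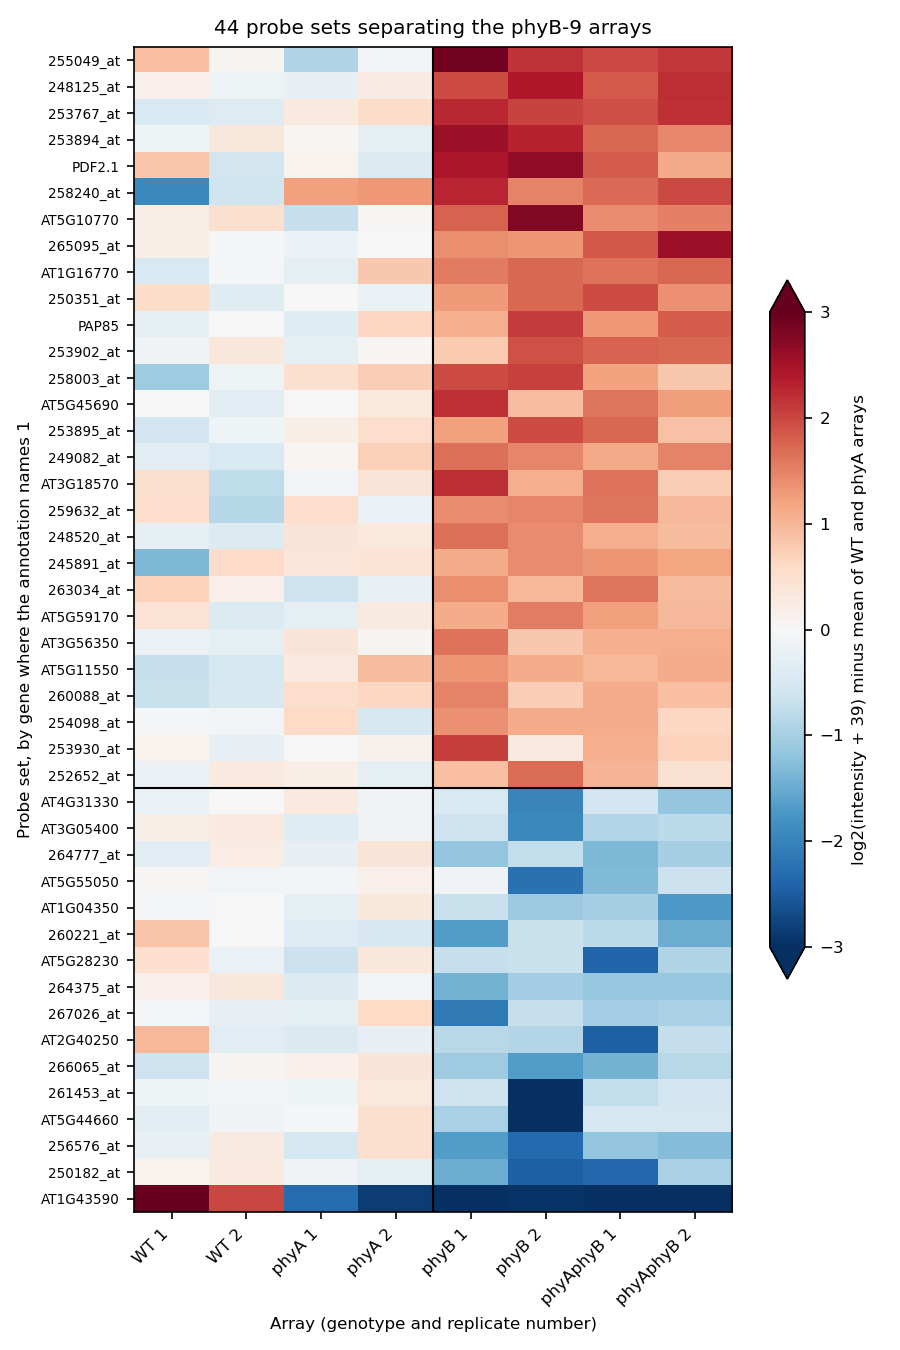
Level of each of the 44 members (rows) on each of the 8 arrays (columns), as the log2 difference from the mean of the 4 WT and phyA arrays; red is higher, blue lower, and values beyond 3 take the end colours. The vertical line parts non-carriers from carriers and the horizontal line the 28 raised from the 16 lowered members; AT1G43590, in the bottom row, was also low in phyA.

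The raised members were spread over the whole range of brightness. Their mean levels ran from 8.04 to 14.70 with a median of 10.85, close to the median of 10.65 over all tested probe sets. The differences ran from 1.02 to 2.3 with a median of 1.47, a 2.77-fold difference on the scale of intensity plus 39. In 5 of them the difference was at least 2. The gap between the lowest carrier and the highest non-carrier was wide in some and almost closed in others, from 0.021 to 1.61, and it was under 0.1 in 3 members.

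Of the raised genes with a known role, a storage protein and an oil body protein are described first, not by size of difference. PAP85 encodes a vicilin-like seed storage protein. Its intensities were 4743 and 5802 in WT, 4426 and 8835 in phyA, 12256 and 24718 in phyB, and 14111 and 20201 in phyAphyB. The lowest carrier lay well above the highest non-carrier, although the replicates of phyA and phyB differed widely. The level averaged 12.37 ± 0.20 in WT and 12.62 ± 0.70 in phyA, against 14.09 ± 0.71 in phyB and 14.05 ± 0.37 in phyAphyB (SD, n = 2 each), and the 4-array means differed by 1.57. AT3G18570 belongs to the oleosin family, whose members coat the oil bodies of seeds. It was read at 415 and 152 in WT, 267 and 383 in phyA, 1466 and 659 in phyB, and 963 and 508 in phyAphyB, a difference of 1.42. Its replicates were the most scattered of the raised members, with a pooled SD of 0.69, and it no longer met the rule after median centring. In seedlings sampled whole, more or fewer cells of a type cannot be told apart from more or less RNA per cell, here and below.

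The list of seed storage and oil body genes gave little more to set beside PAP85. Of its 21 genes 2 had a probe set of their own in the annotation table used, PAP85 and AT1G03890. The other genes of the list could be among the unlisted probe sets and were not read. AT1G03890 was 79 and 143 in WT, 159 and 291 in phyA, 188 and 846 in phyB, and 267 and 265 in phyAphyB. Its groups overlapped at a difference of 0.93. In the list for the use of those reserves, ICL, the isocitrate lyase of the glyoxylate cycle, was 57480 to 101229 in non-carriers and 66865 to 148008 in carriers, with a difference of 0.42 and overlapping groups.

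PDF2.1, a plant defensin, had the largest difference among the named raised genes. Its intensities were 1608 and 595 in WT, 958 and 657 in phyA, 4969 and 5812 in phyB, and 3223 and 1993 in phyAphyB. Carriers were higher throughout, and both double mutant arrays lay below both phyB arrays. The 4-array means differed by 2.02, with a pooled SD of 0.58. Relatives of the gene did not separate the arrays: PDF2.2 differed by 0.30, PDF2.3 by -0.02 and PDF1.1 by 0.78. PDF2.1 did not meet the rule after median centring or quantile normalization.

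Enzymes and a wall protein made up a further group. AT5G10770, a member of the aspartyl protease family, was 256 and 319 in WT, 120 and 224 in phyA, 834 and 1715 in phyB, and 645 and 692 in phyAphyB, a difference of 1.86 with a gap of 0.93. AT3G56350, of the iron/manganese superoxide dismutase family, was 1523 and 1416 in WT, 2281 and 1845 in phyA, 5439 and 3057 in phyB, and 3687 and 3731 in phyAphyB, a difference of 1.15. Both phyA arrays of the latter lay between WT and the carriers. AT5G59170, a proline-rich, extensin-like cell wall protein, was 1715 and 944 in WT, 1016 and 1525 in phyA, 2783 and 3731 in phyB, and 3003 and 2492 in phyAphyB, a difference of 1.21. The lowest carrier of this gene still stood 0.53 above the highest non-carrier on the log2 scale.

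The last 3 named raised genes include some of the dimmest members. AT1G16770, for which no role is given here, was 69 and 105 in WT, 81 and 219 in phyA, 398 and 452 in phyB, and 417 and 446 in phyAphyB. The 4 carriers of AT1G16770 were nearly equal, and the 4-array means differed by 1.66. AT5G11550, an armadillo repeat protein, was 129 and 148 in WT, 291 and 484 in phyA, 635 and 544 in phyB, and 506 and 546 in phyAphyB. The phyA arrays of AT5G11550 took a middle position, and its gap of 0.059 between phyA replicate 2 and the lowest carrier was among the narrowest. AT5G45690, also without a role here, was 960 and 765 in WT, 973 and 1200 in phyA, 4556 and 1877 in phyB, and 2991 and 2352 in phyAphyB, a difference of 1.5.

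Of the 19 unlisted raised probe sets, 255049_at, 248125_at, 253767_at, 253894_at and 258240_at had the largest differences. 255049_at was 792 and 438 in WT, 200 and 387 in phyA, 3314 and 1986 in phyB, and 1729 and 1915 in phyAphyB, a difference of 2.3. 248125_at was 7096 and 5706 in WT, 5307 and 7467 in phyA, 24828 and 33597 in phyB, and 22939 and 29706 in phyAphyB. With a gap of 1.61, 248125_at had the widest separation of all members, and its difference was 2.11. 253767_at was 9325 and 9784 in WT, 15765 and 18668 in phyA, 61093 and 52253 in phyB, and 49281 and 58898 in phyAphyB. This probe set was among the brightest members, with phyA above WT, and had a difference of 2.1. 253894_at was 389 and 548 in WT, 441 and 347 in phyA, 2778 and 2279 in phyB, and 1502 and 1220 in phyAphyB, a difference of 2.02. 258240_at was 464 and 1217 in WT, 4429 and 4654 in phyA, 9301 and 5287 in phyB, and 6137 and 7438 in phyAphyB, so that phyA was close to the carriers and WT stood alone. Its difference of 1.86 was 1.22 without WT replicate 1. The other 14 unlisted raised probe sets differed by 1.02 to 1.79. In 6 of the 28 raised members every carrier reached an intensity of at least 10000, and in 3 no array reached 1000.

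**Figure D2:**
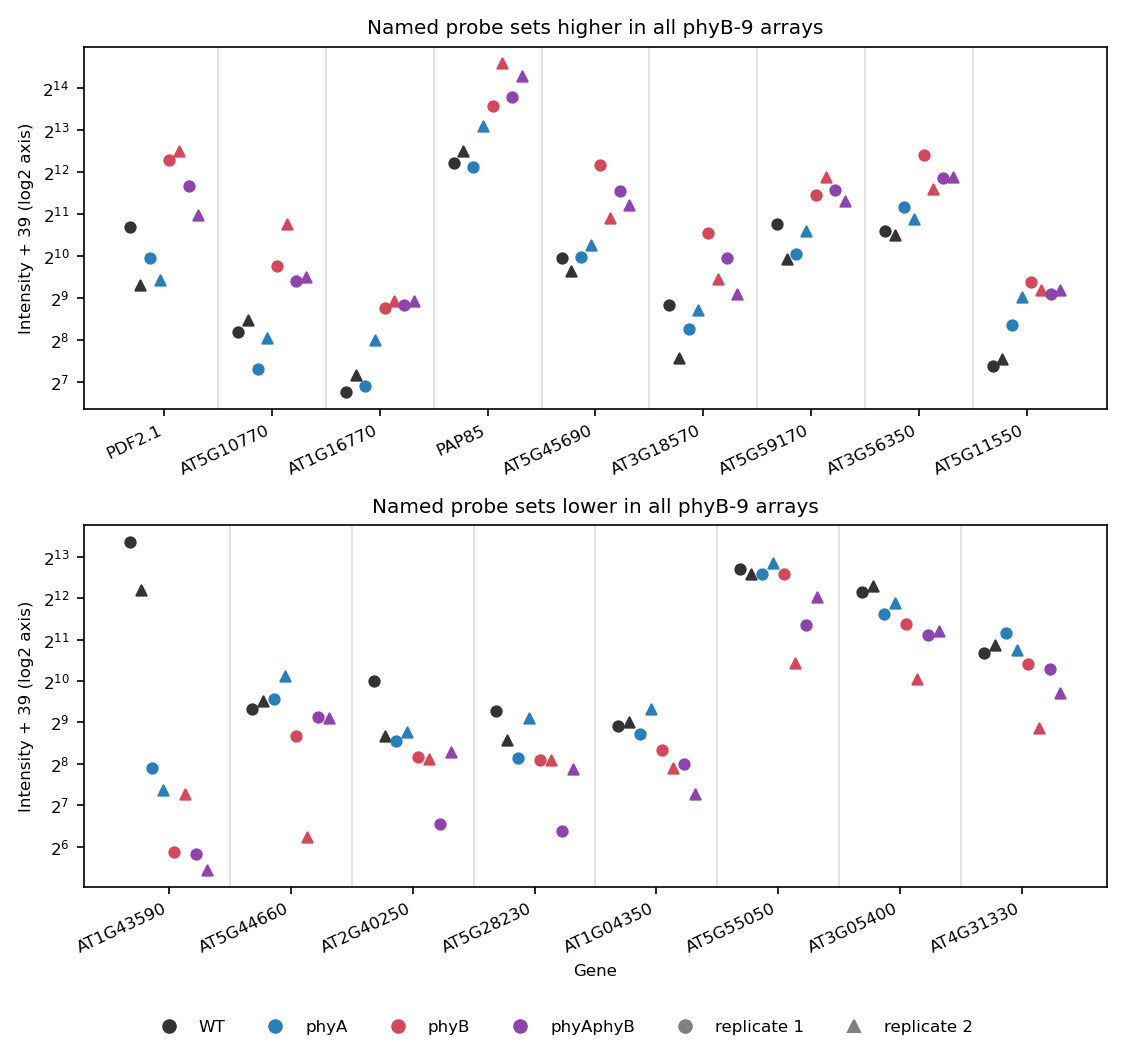
Intensity plus 39 (log2 axis) of the 17 named members on each array; colours mark the genotype and shapes the replicate number, and genes are ordered by the size of the difference. The 9 raised genes (top) have all red and purple points above all black and blue ones, by as little as 0.059 in AT5G11550; the 8 lowered genes (bottom) the reverse, by as little as 0.0026 in AT5G55050.

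The lowered members were dimmer and less evenly spread over their arrays. Their median mean level was 8.96, against 10.65 over all tested probe sets, and in 7 of the 16 no array reached an intensity of 1000. The median spread between replicates (pooled SD of the level) was 0.60, against 0.42 in raised members and 0.44 over all tested probe sets. Differences ran from -1.05 to -4.10 with a median size of 1.19, a 2.28-fold difference on the scale of intensity plus 39, and 1 member reached a size of 2. In 8 of the 16 phyB replicate 2, the carrier array with the high GAPDH ratio, was the lowest carrier. Over all tested probe sets it was the lowest carrier in 29.0%.

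AT1G43590, annotated as a pseudogene, had the largest difference of all members, at -4.10. It was read at 10536 and 4685 in WT, 198 and 125 in phyA, 20 and 115 in phyB, and 18 and 4 in phyAphyB. The signal was thus high in WT alone, and phyA lay far nearer to the carriers than to WT. The mean level was 12.79 in WT, against 7.62 for phyA, 6.57 for phyB and 5.63 for phyAphyB, so the probe set passed the lower limit of 8 through WT only, and its differences from WT are given without a test. In 3 carriers it was under the added 39, so the size depends on that number: it was -5.59 with 1 added and -3.35 with 100 added. Without WT replicate 1 it was -3.05. The gap between phyA replicate 2 and phyB replicate 2 was only 0.091, and the member did not meet the rule with 1 added, after median centring, without either WT array or without both arrays of high GAPDH ratio. The other pseudogene, AT5G28230, annotated as transcribed, was 582 and 343 in WT, 243 and 513 in phyA, 233 and 236 in phyB, and 44 and 196 in phyAphyB, a difference of -1.17. That value was -0.75 without phyAphyB replicate 1, and phyA replicate 1 almost met the phyB arrays.

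A pair of the lowered genes belong to the GDSL family of lipases and esterases. AT2G40250 was 982 and 370 in WT, 338 and 394 in phyA, 248 and 240 in phyB, and 55 and 274 in phyAphyB, a difference of -1.21 that was -0.80 without phyAphyB replicate 1. AT5G55050 was 6642 and 6135 in WT, 6120 and 7289 in phyA, 6109 and 1347 in phyB, and 2587 and 4169 in phyAphyB. In AT5G55050 phyB replicate 1 was level with the non-carriers, 6109 against 6120, and the difference of -1.08 was -0.69 without phyB replicate 2.

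The other named lowered genes cover transport, metabolism and genes without a stated role. AT3G05400, of the sugar transporter family, was 4512 and 4977 in WT, 3125 and 3730 in phyA, 2617 and 1019 in phyB, and 2159 and 2333 in phyAphyB, a difference of -1.05. AT1G04350, of the 2-oxoglutarate and iron-dependent oxygenase family, was 447 and 474 in WT, 380 and 606 in phyA, 283 and 200 in phyB, and 218 and 115 in phyAphyB, a difference of -1.12. The gaps of these genes were 0.25 and 0.38 in that order, beside a median of 0.26 in the lowered members. AT5G44660 was 598 and 698 in WT, 718 and 1070 in phyA, 367 and 36 in phyB, and 519 and 517 in phyAphyB. A single array, phyB replicate 2, set the size of its difference, which was -1.35 with that array and -0.66 without it. AT4G31330 was 1585 and 1836 in WT, 2263 and 1688 in phyA, 1320 and 430 in phyB, and 1210 and 797 in phyAphyB, a difference of -1.05, or -0.80 without the 2 arrays of high GAPDH ratio.

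The 5 unlisted lowered probe sets with the largest differences were 250182_at, 256576_at, 261453_at, 266065_at and 267026_at. 250182_at was 650 and 752 in WT, 557 and 493 in phyA, 192 and 79 in phyB, and 88 and 292 in phyAphyB, a difference of -1.81. 256576_at was 730 and 1027 in WT, 581 and 1198 in phyA, 239 and 138 in phyB, and 355 and 320 in phyAphyB, a difference of -1.62. Those 2 had the widest gaps of the lowered members, 0.68 and 0.65. 261453_at was 685 and 713 in WT, 686 and 948 in phyA, 478 and 34 in phyB, and 435 and 491 in phyAphyB. As in AT5G44660, phyB replicate 2 alone was far down, and the difference of -1.34 was -0.64 without it. 266065_at was 1729 and 2831 in WT, 2941 and 3488 in phyA, 1242 and 803 in phyB, and 974 and 1475 in phyAphyB, a difference of -1.25. 267026_at was 387 and 334 in WT, 326 and 634 in phyA, 64 and 238 in phyB, and 182 and 187 in phyAphyB, a difference of -1.19. The remaining 3 unlisted lowered probe sets differed by -1.18, -1.15 and -1.06.

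**Figure D3:**
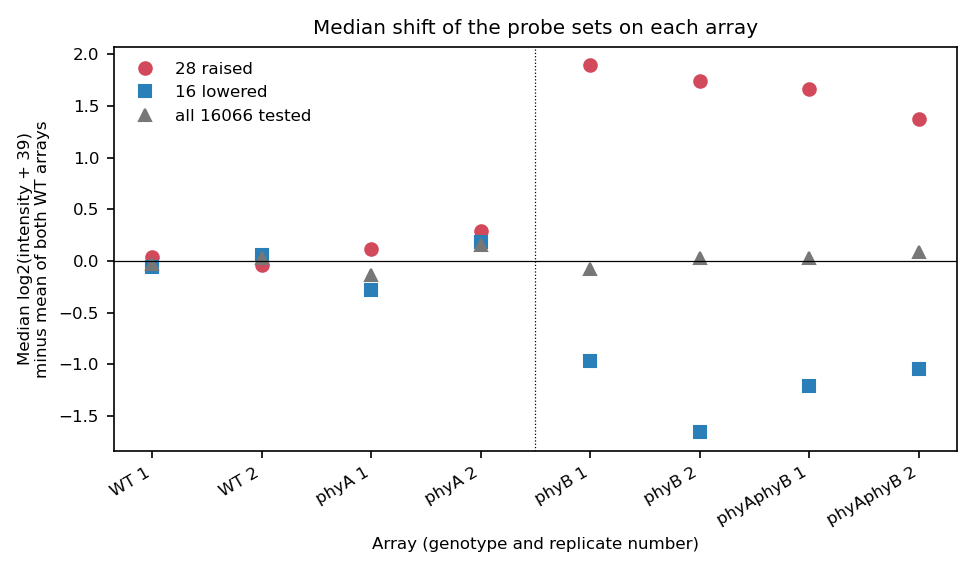
Median over the 28 raised members, the 16 lowered members and all 16066 tested probe sets on each array, as the difference in level from the mean of both WT arrays. The raised median is 1.37 to 1.89 on the carriers and -0.04 to 0.29 on the non-carriers, the lowered median -1.66 to -0.97 against -0.28 to 0.19, and the median of all tested probe sets stays between -0.14 and 0.16.

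By array, the raised members stood highest in phyB replicate 1, at a median of 1.89 above WT, followed by 1.74 in phyB replicate 2, 1.67 in phyAphyB replicate 1 and 1.37 in phyAphyB replicate 2. The farthest carrier was phyB replicate 1 in 13 of the 28 and phyB replicate 2 in 11, and a double mutant array in the remaining 4. The highest carrier was not counted over all tested probe sets, and nothing is read from these counts because the rule used these arrays. The lowered members were farthest down in phyB replicate 2, at a median of -1.66, and lay between -1.21 and -0.97 in the other 3 carriers. The medians of the same members in phyA were 0.11 and 0.29 for the raised and -0.28 and 0.19 for the lowered. Those of all tested probe sets in phyA were -0.14 and 0.16.

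A first question is whether the difference by phyB-9 depended on phytochrome A. The comparison of phyB with WT and that of phyAphyB with phyA share no array, but the rule used both of them, so their contrast is a description of the members. The raised members had a median difference of 1.76 in the former and 1.11 in the latter, and 23 of 28 were larger in the former. The lowered members had medians of -1.36 and -1.18, and 11 of 16 were larger in size in the former. The interaction contrast, which takes the first difference from the second, was fitted with limma over all 16066 probe sets and called 0 of them (0%), and so 0 of the 44 members. An unadjusted p under 0.05 was found for 3.14% of all tested probe sets and for 5 members, from which nothing is read because of the rule. Without WT replicate 2 the test called 16 probe sets, none of them members.

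Of the raised members 23 had a negative interaction and 5 a positive one, with a median of -0.49, while the median over all tested probe sets was 0.11. Of the lowered members 11 were positive and 5 negative, with a median of 0.38. Signs were not counted over all tested probe sets, and nothing is read from these counts because of the rule. The interaction was -2.58 for 258240_at (SE 0.66, 95% interval -4.05 to -1.11) and -2.20 for 258003_at (SE 0.56, interval -3.44 to -0.96), each with a limma adjusted p of 0.999. In AT1G43590 the difference by phyB-9 was -6.21 against WT and -1.99 against phyA, both down to carriers whose signal lay mostly under the added 39. 258003_at was 608 and 1181 in WT, 1847 and 2207 in phyA, 5176 and 5550 in phyB, and 3100 and 2335 in phyAphyB. In that probe set phyA was higher than WT, and the double mutant lay between phyA and phyB.

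**Figure D4:**
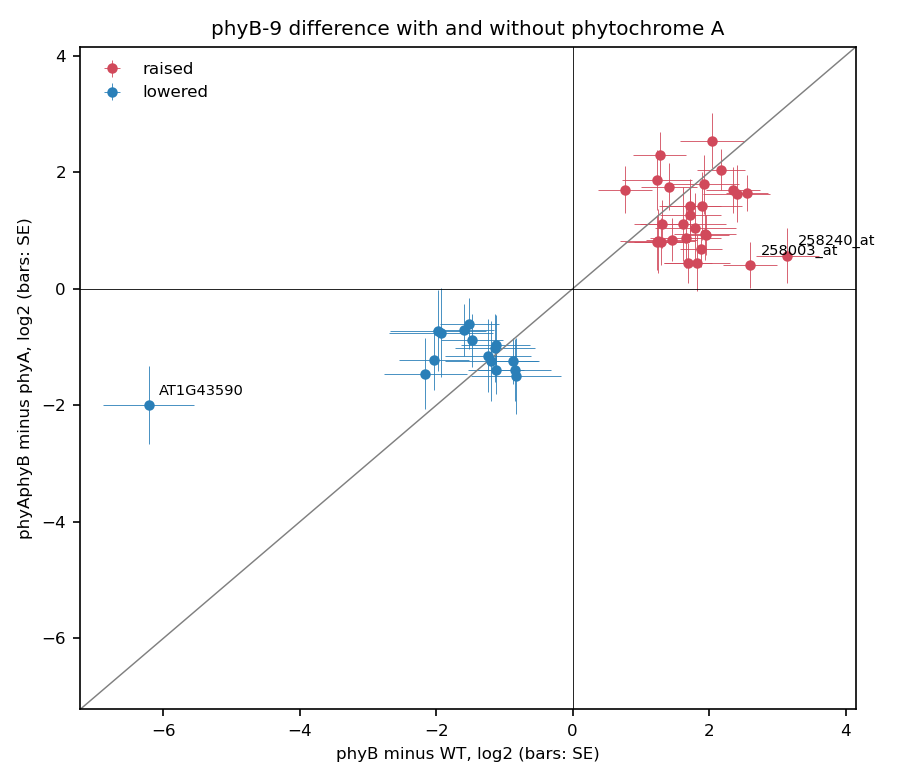
Difference by phyB-9 of each member with phytochrome A (phyB minus WT, horizontal) and without it (phyAphyB minus phyA, vertical), in log2 units with SE bars from limma; the grey line marks equal differences. All 44 members lie in the quadrants that the rule fixes, most raised members (23 of 28) lie below the line, and AT1G43590 lies far off it at -6.21 and -1.99. Nothing is read from the 23 of 28, because the rule used both axes.

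The second question is whether phyA-211 went with differences in the same probe sets. The rule did not use this comparison itself, since WT with phyB and phyA with phyAphyB each hold 2 carriers and 2 non-carriers. But separating all carriers from all non-carriers bounds how far phyA can lie from WT and phyAphyB from phyB. The values of members below are therefore descriptions, and nothing is read from their shares. Averaged over both backgrounds, the difference by phyA-211 had a median of 0.09 in raised members and -0.03 in lowered ones, against 0.04 over all tested probe sets. limma called 5 of the 16066 probe sets (0.0311%) and 0 of the 44 members, with 2 members (4.55%) at an unadjusted p under 0.05 against 3.16% of all. These 2 were 258240_at, at 1.24 (SE 0.33, limma adjusted p = 0.93), and AT1G43590, at -3.05, which WT alone brought over the limit of 8. Next came 255049_at, at -0.73 (SE 0.33, adjusted p = 0.93).

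Against WT, phyA had 0 called members where limma called 2 probe sets in all (0.0124%), and 8 of the 44 at an unadjusted p under 0.05, where 5.86% of all tested probe sets had one. One of the 8 was AT1G43590, at -5.16, for which the limit of 8 was passed through WT only and no support is taken from the test. 258240_at stood at 2.53 (SE 0.47, limma adjusted p = 0.49). Without WT replicate 2 the difference of 258240_at was 3.19, but WT then rested on replicate 1 alone, the array with the highest GAPDH and actin ratios. The unlisted 260088_at stood at 1.15 (SE 0.35, adjusted p = 0.82), with 3201 and 3653 in WT, 7340 and 7931 in phyA, 14376 and 8562 in phyB, and 11142 and 9646 in phyAphyB. In these 3 members the mean of phyA lay between that of WT and that of the carriers.

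Counted over arrays, 10 of the 28 raised members (35.7%) had both phyA arrays above both WT arrays, where 17.3% of all tested probe sets did, and 3 (10.7%) had both below, where 16.9% did. The 10 include AT5G11550, AT3G56350 and AT5G45690, and the 3 below include AT5G10770. Of the 16 lowered members 5 (31.3%) had both phyA arrays below both WT arrays, among them AT1G43590 and AT3G05400, and 2 (12.5%) had both above. On the whole 17 raised members had a higher mean in phyA than in WT and 11 a lower one, and the lowered members were split 8 and 8. With 2 arrays on each side, such counts carry no test of their own, and nothing is read from their shares because the rule used these arrays.

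Among carriers, the double mutant differed from phyB in 0 members by limma, which called 2 probe sets in all (0.0124%). An unadjusted p under 0.05 was found for 4 members (9.09%), against 1.28% of all. Nothing is read from these shares or from the counts over arrays that follow, because the rule used the same arrays. The 4 members included 258003_at at -0.98 (SE 0.39), AT5G44660 at 1.67 (SE 0.70) and 253894_at at -0.88 (SE 0.39), each with a limma adjusted p of 0.998. The value of AT5G44660 rested on phyB replicate 2 and was 0.46 without it. Both double mutant arrays lay below both phyB arrays in 6 of the 28 raised members (21.4%), where 10.5% of all tested probe sets did, with PDF2.1 and AT5G10770 among them, and both lay above in 1 (3.57%), where 15.9% did. In the lowered members the counts were 2 below and 2 above. Of the raised members 23 had a lower mean in phyAphyB than in phyB and 5 a higher one, at a median of -0.15, while the median of all tested probe sets was 0.08.

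**Figure D5:**
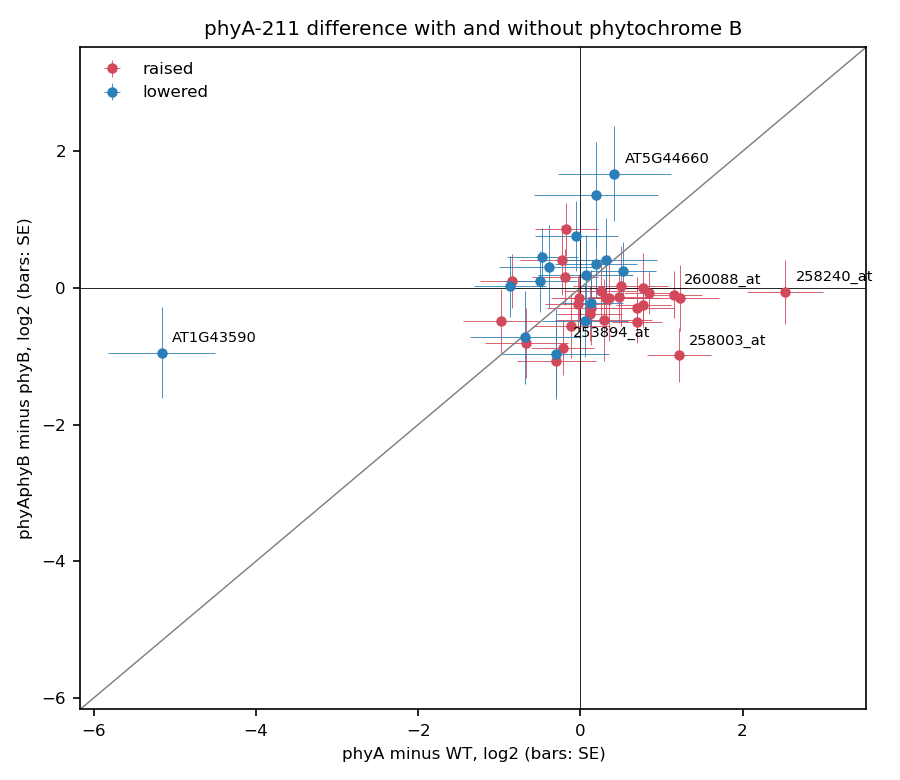
Difference by phyA-211 of each member with phytochrome B (phyA minus WT, horizontal) and without it (phyAphyB minus phyB, vertical), in log2 units with SE bars from limma; the grey line marks equal differences. Of the 44 members 24 lie more than 0.5 from 0 on at least 1 axis and 8 more than 1, with AT1G43590 at -5.16 and 258240_at at 2.53 the farthest on the horizontal axis; no member passed the limma test on either axis.

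Genes of light and growth pathways were looked up in 17 lists, 4 of them checks of tissue and 1 of reference genes. Of 254 genes written down, 49 had a probe set of their own in the annotation table used and 42 were bright enough to be tested. PAP85 and PDF2.1 were the 2 that met the rule. Neither of the 2 measured phytochrome targets did: IAA29, an auxin response repressor, differed by -0.37 and FHL, which helps phytochrome A into the nucleus, by -0.17. The clock gene GI differed by 0.03, and the medians were 0.28 for 4 nuclear photosystem genes, -0.05 for 3 chlorophyll synthesis genes, 0.00 for 3 gibberellin receptors and -0.34 for 4 auxin response genes, beside 0.01 over all tested probe sets. In the cell wall list the expansin EXPA15 had all carriers above all non-carriers, at 722 to 1420 against 1558 to 2681, with a difference of 0.88 that left it outside the rule. EXPA8, another expansin, differed by 0.96 with overlapping groups. None of the listed genes was called in the 4 tests of phyA-211 and of the interaction.

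The other lists held as few measured genes. Medians were 0.17 for 2 genes of reserve use, -0.09 for 5 of abscisic acid and dehydration, 0.17 for 6 of cell wall expansion, 0.30 for 5 of defence and 0.21 for 2 of heat shock. Among the tissue checks, ICL was the only marker measured of the 7 for etiolated seedlings and was bright on every array. Of the root list 3 were measured, with a median of 0.09. The 2 measured pollen genes, LAT52 and TET11, had mean levels of 6.74 and 7.95, under the limit of 8. No mature seed marker had a probe set of its own in the annotation table used, so none could be read. The reference genes TIP41 and SAND differed by -0.33 and -0.35.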

How the data were processed

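The deposited values were linear intensities, given by the authors as whole numbers for every probe set of each array. RNA was taken with a column kit and labelled by the array maker's protocol, per the labels' protocols, while for the summarising software, none is named in the labels (not given in the sources used here). A trimmed mean (2% at each end) was 2500.2 to 2500.3 on every array, so the deposited intensities had been scaled. The 64 control probe sets were left out. The number added before log2, 39, is the 10th percentile of all values. Probe sets with a mean level of at least 8 (16066 of 22746) were fitted with limma 3.58.1 (R 4.3.3), a mean per genotype over all 8 arrays and eBayes with an intensity trend, with Benjamini-Hochberg adjustment over all of them at a threshold of 0.05, two-sided. The residual had 4 degrees of freedom and the prior 6.23. The fit was tested on simulated data. The 3'/5' ratios divide the intensities of the control probe sets.

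Members and lists were chosen with earlier results of these data known. Genes named were all members naming 1 gene, the 5 unlisted members with the largest difference in each direction, those at the edge of the rule, the 3 smallest p of each test and members in a list. Listed genes named that are not members were picked with their values in view. Names came from the platform's annotation, matched to RefSeq genes of TAIR10.1: 13513 probe sets named 1 gene, 503 several, and 8730 were not listed. Roles of genes are background knowledge. A planned description of promoter motifs was not made, and no sequences were used here. The title of the first phyA array carries no replicate number, and it was called replicate 1 in accession order. Precision is limited by 2 arrays per genotype. Alternatives covered the added number, scaling, filters, the rule's limits, the intensity trend, the replicate number and single arrays.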

Additional observations from a re-analysis of the deposited data

How the results depend on the processing

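The count of raised members (28) was 25 to 30 with 1 or 100 added or quantile normalization and 19 with median centring. It was 64 at a mean level of at least 7, 47 and 13 at a difference of at least 0.8 and 1.5, and 51 without both arrays of high GAPDH ratio. The count of lowered members (16) was 13 to 20 with 1 or 100 added or median centring, 26 with quantile normalization, 6 and 34 at a mean level of at least 9 and 7, 32 and 3 at 0.8 and 1.5, and 27 without both arrays. Leaving out 1 array eases the separation by construction and gave 32 to 73 raised (54 without WT replicate 1, 71 without phyA replicate 1, 73 without phyA replicate 2, 45 without phyB replicate 1, 71 without phyAphyB replicate 2) and 17 to 51 lowered (34 without phyA replicate 1, 29 without phyB replicate 1, 51 without phyAphyB replicate 2). Under all 13 changes of scaling, added number or arrays, 14 raised and 4 lowered members met the rule throughout. The named ones were PAP85, AT5G10770, AT5G45690 and AT5G59170. Another added number or left-out arrays cannot undo a member's separation, so with these only the limits on level and size could fail. No named member's difference changed sign, but with those changes the rule fixed the sign. Only median centring and quantile normalization could have changed it.

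Calls by limma over all probe sets moved as follows. For phyA-211 averaged over both backgrounds (5 calls) there were 3 with median centring, 2 without an intensity trend, 2 without both arrays and 2 to 6 without 1 array. For the interaction (0) there were 0 to 16. For phyA against WT (2) there were 4 with 100 added, 4 with median centring, 5 with quantile normalization, 4 without a trend, 1 without both arrays and 2 to 96 without 1 array (96 without WT replicate 2). For phyAphyB against phyB (2) there was 1 without both arrays and 0 to 2 without 1 array (0 without phyB replicate 1). For carriers against non-carriers (3) there was 1 with median centring or without a trend, 0 without both arrays and 0 to 8 without 1 array (8 without WT replicate 2, 0 without any other). The only members among the calls for phyA against WT in any setting were AT1G43590 and 258240_at. The latter was called only without WT replicate 2, where WT rested on replicate 1 alone, the array with the highest GAPDH and actin ratios. AT1G43590 passed the limit of 8 through WT only, so its p-values against WT are left out and nothing is read from its calls. The causes were not tested. The deviations of same-numbered arrays correlated at 0.60 for WT and phyAphyB, 0.488 for phyA and phyAphyB, 0.371 for phyA and phyB and 0.347 for WT and phyA, but at 0.095 for phyB and phyAphyB and -0.078 for WT and phyB, so the numbers were not taken as pairs. With the replicate block there were 6 calls for phyA against WT, with AT1G43590 the only member. The block gave 8 for carriers, 5 for phyA-211, 2 for phyAphyB against phyB and 0 for the interaction. What depth allows beyond signal over the added 39 could not be read from intensities alone.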
